A study of Mus musculus with 6 samples.

Results

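Histones are the proteins around which DNA is wrapped, and the mouse lymph node transcriptome held 66 histone genes with at least 1 read. They were the genes whose symbol marks an H1, H2A, H2B, H3 or H4 gene of the histone gene clusters, or a replacement variant of the H1, H2A.Z, H2A.X or H3.3 kind. Such symbols numbered 77 among the 50559 genes of the deposited table, of which 28727 had a read, and 11 of the 77 were listed at 0 in every library. The members comprised 60 cluster genes (6 H1, 17 H2A, 14 H2B, 12 H3 and 11 H4) and 6 replacement variants (H1f0, H1f10, H2az1, H2az2, H3f3a and H3f3b). Inguinal lymph nodes came from mice given naringin, the bitter flavanone glycoside of grapefruit, mixed into the food each day at 200 mg/kg (Naringin, 3 libraries), and from mice labelled Control (3 libraries). The labels name no strain, age, sex or length of treatment, and do not describe what the Control mice ate. They also do not state that each library is a separate animal, so p-values here reflect the spread between libraries, which may be technical.

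Cluster histone genes supply the bulk of the histones that package newly copied DNA, and they are transcribed in S phase. Their mRNAs are the animal mRNAs that end in a short stem-loop in place of a poly(A) tail, which the stem-loop binding protein Slbp recognises. Replacement variants are transcribed through the cell cycle, carry introns or a poly(A) tail, and take the place of the bulk histones in non-dividing cells: H3.3 at active genes and telomeres, H2A.Z around transcription start sites, and H1.0 in cells that have left the cycle. In a lymph node most lymphocytes rest, while germinal centre B cells and plasmablasts divide.

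The stem-loop marks many of the cluster genes at the level of sequence and is shown first. The 16-base pattern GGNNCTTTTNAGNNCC was sought on the transcript strand of the mouse GENCODE M21 gene models, which are built on GRCm38, whereas the deposited values rest on mm39. It occurred in 39 of the 58 cluster members that had a model and in none of the 6 replacement variants with a read. The model of H2ax, a replacement variant listed at 0 in every library, also held the pattern. Among all 21901 protein-coding genes with a model, 72 held it, or 0.329%. The most common form, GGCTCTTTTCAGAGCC, stood in 23 of the 39 genes. The sites of 8 genes are given below with 5 bases on each side, the 2 arms of the stem in capitals and the 4-base loop in lower case. They were chosen because they have the most reads among the genes of their class with a match, or show a rarer form of the arm or loop.
H1f2: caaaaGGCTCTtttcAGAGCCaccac
H2ac8: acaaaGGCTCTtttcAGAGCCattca
H2bc6: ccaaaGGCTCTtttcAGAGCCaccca
H3c3: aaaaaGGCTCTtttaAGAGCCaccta
H2ac20: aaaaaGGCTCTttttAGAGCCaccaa
H4c9: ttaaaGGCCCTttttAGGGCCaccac
H4c4: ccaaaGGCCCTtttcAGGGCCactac
H4c2: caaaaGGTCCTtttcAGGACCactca
The arms of H4c9 and H4c4 carried GGCCCT, those of H4c2 carried GGTCCT, and the other printed arms carried GGCTCT. By class, a match was found in 4 of 6 H1, 9 of 15 H2A, 9 of 14 H2B, 8 of 12 H3 and 9 of 11 H4 models. Of the 19 cluster genes with no match, 11 had no base after the stop codon in their model, so that no site could have been found there. H2bc4 and H2bc21, the H2B genes with the most reads, had models of 1156 and 2620 bases that held no match.

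The promoters of the members, from 250 bases before to 50 bases after the RefSeq transcription start on GRCm38.p6, were matched for 53 cluster genes and all 6 replacement variants. The printed windows are those of H1f2 and H2ac8, the cluster H1 and H2A genes with the most reads, and of H3f3a and H3f3b, which encode the same H3.3 protein. Capitals mark the CCAAT box, TATAAA, the octamer ATTTGCAT bound by Oct proteins and the H1 box AAACACA, each searched on both strands.
H1f2 promoter, chr13:23738557-23738856, plus strand: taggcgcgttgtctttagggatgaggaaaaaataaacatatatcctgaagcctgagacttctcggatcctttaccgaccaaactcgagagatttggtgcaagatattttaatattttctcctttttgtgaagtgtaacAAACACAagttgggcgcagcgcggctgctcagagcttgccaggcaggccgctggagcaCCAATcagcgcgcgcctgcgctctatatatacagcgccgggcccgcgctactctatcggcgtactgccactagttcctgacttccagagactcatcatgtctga
H2ac8 promoter, chr13:23571171-23571470, minus strand: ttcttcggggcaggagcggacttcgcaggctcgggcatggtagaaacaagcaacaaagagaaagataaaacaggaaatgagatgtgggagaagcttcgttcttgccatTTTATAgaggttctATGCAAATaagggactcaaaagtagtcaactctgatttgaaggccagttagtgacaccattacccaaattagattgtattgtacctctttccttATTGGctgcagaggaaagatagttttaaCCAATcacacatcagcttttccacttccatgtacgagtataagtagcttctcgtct
H3f3a promoter, chr1:180813556-180813855, minus strand: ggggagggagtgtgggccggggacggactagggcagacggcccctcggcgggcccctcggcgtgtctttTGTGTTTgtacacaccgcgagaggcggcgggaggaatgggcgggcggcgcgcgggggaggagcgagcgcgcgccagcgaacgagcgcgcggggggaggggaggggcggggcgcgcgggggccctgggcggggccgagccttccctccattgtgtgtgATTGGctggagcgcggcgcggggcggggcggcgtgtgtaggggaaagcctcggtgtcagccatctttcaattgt
H3f3b promoter, chr11:116024455-116024754, minus strand: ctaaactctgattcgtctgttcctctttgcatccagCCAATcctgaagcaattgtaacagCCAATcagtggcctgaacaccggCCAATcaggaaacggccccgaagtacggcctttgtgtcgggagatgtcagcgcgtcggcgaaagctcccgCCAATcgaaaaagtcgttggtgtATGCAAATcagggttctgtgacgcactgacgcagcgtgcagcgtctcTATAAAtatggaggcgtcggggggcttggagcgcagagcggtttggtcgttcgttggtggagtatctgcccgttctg
The H3f3b window held 4 CCAAT boxes, 1 octamer and 1 TATAAA, whereas the H3f3a window held 1 CCAAT box, 1 H1 box and neither of the other motifs. In the H2ac8 window TATAAA and the octamer stood on the strand opposite to the gene, 142 and 128 bases before its start. Over the 53 cluster promoters a CCAAT box occurred in 46, against 37.9% of all 27025 promoters in the table. It stood in every H1, H2A, H2B and H3 promoter matched (6, 15, 12 and 10) but in 3 of 10 H4 promoters. TATAAA occurred in 31 of 53 cluster promoters, against 14.2% of all promoters. The octamer was found in 5 of 15 H2A and 5 of 12 H2B promoters and in no other cluster class, against 1.75% of all promoters. The H1 box stood in 5 of 6 H1 promoters and in 7 of all 53, against 7.14% of all promoters. Among the 6 replacement variants, 4 held a CCAAT box and 1 each held the octamer, TATAAA and the H1 box. Many H2A and H2B genes face each other and share a promoter region, so these windows are not independent of each other, and a match is a description of letters, not of a bound site.

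The libraries held 14924805, 14976422 and 14276848 reads in genes for Naringin, against 13074180, 13834251 and 14963386 for Control, so that 1 read was worth 0.0668 to 0.0765 CPM (a gene's reads per 1000000 reads of its library). Control 3 stood apart from the other libraries. The slope of its gene values, taken against their mean over all libraries, was -0.19 log2 units per doubling of exon length, against 0.0058 to 0.031 in the Naringin libraries and 0.058 and 0.089 in Control 1 and 2. Fold changes and log2 ratios that its omission moves by over 1.5 times or turns in sign are given with and without it. The node was recognisable by its lymphocytes: Cd3e, of the T cell receptor complex, had 197, 156 and 248 CPM in Naringin nodes and 231, 210 and 207 CPM in Control nodes. Ms4a1, the B cell surface protein CD20, had 457, 573 and 445 CPM in Naringin nodes and 363, 447 and 377 CPM in Control nodes. All 4 T cell markers tested were lower and all 4 B cell markers were higher in Naringin nodes, none past the test, with median log2 fold changes of -0.17 and 0.19, or -0.20 and 0.15 without Control 3. Cd4, of helper T cells, had 244, 213 and 236 CPM in Naringin nodes and 259, 294 and 265 CPM in Control nodes. It was the 1 T cell marker of the 4 tested whose groups did not overlap. Every Naringin library lay below every Control library, as in 2.29% of all genes tested. Cd4 was named after its values had been seen. Of the neighbouring tissues, the 4 fat cell markers summed to 10.6, 11.8 and 2.87 CPM in Naringin nodes and to 30.8, 10.05 and 7.75 CPM in Control nodes, among them Adipoq with 2.08, 2.47 and 0.770 CPM in Naringin nodes and 4.05, 2.17 and 1.604 CPM in Control nodes, and Krt14 of keratinocytes and Acta1 of muscle stayed at 0.401 CPM or lower in every library. The T cell marker Trac was listed at 0 in all libraries.

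Histone genes together took 0.170%, 0.181% and 0.168% of the reads of the Naringin libraries, and 0.171%, 0.167% and 0.202% of the reads of the Control libraries. The 6 replacement variants supplied nearly all of them, between 94.3% and 96.1% in every library, and H3f3a and H3f3b together between 70.6% and 76.4%. The 60 cluster genes summed to 96.3, 73.5 and 65.8 CPM in Naringin nodes and to 81.5, 66.6 and 102 CPM in Control nodes. Both groups spanned about the same range, with means of 78.5 ± 15.9 CPM in Naringin nodes and 83.3 ± 17.6 CPM in Control nodes (SD, n = 3 each) and a log2 ratio of -0.084. Without Control 3 this ratio was 0.085. The replacement variants summed to 1606, 1737 and 1614 CPM in Naringin nodes and to 1624, 1604 and 1920 CPM in Control nodes. Their means were 1652 ± 73.6 CPM in Naringin nodes and 1716 ± 177 CPM in Control nodes (SD, n = 3 each), a log2 ratio of -0.054 that was 0.034 without Control 3. The ratio of cluster to replacement CPM within a library, which no library scaling can move, was 0.0599, 0.0423 and 0.0408 in Naringin nodes and 0.0502, 0.0415 and 0.0530 in Control nodes. These groups overlapped as well, and Naringin 1 had the highest ratio of the 6 libraries. The sources used here do not say whether poly(A) RNA was selected or ribosomal RNA removed, and a poly(A) selection would lower the share of mRNAs that end in the stem-loop. In whole nodes, fewer cells of a type and less RNA per cell cannot be told apart.

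**Figure D1:**
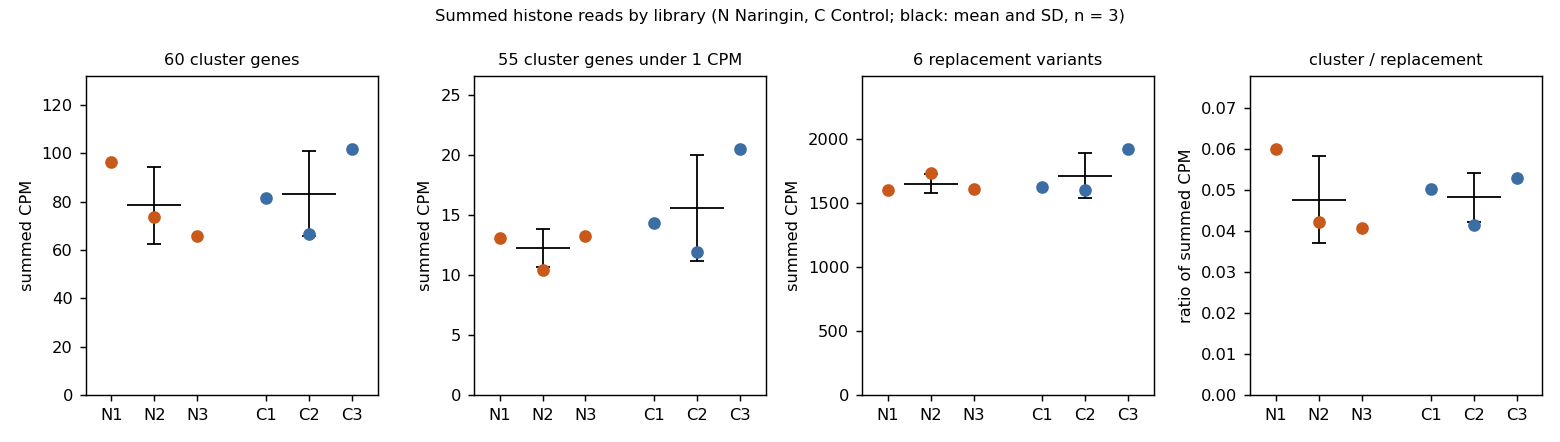
Summed CPM of the 60 cluster histone genes, of the 55 cluster genes under 1 CPM and of the 6 replacement variants, and the ratio of cluster to replacement CPM, in each of the 3 Naringin and 3 Control libraries. Points are libraries and black bars are the mean and SD (n = 3). The cluster sums of the groups overlap, at 65.8 to 96.3 CPM in Naringin nodes and 66.6 to 102 CPM in Control nodes, and Control 3 is the highest library in each sum.

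Of the 66 members, 11 reached a mean of 1 CPM over the 6 libraries and were tested among 14873 genes: the 6 replacement variants and the cluster genes H2bc4, H1f2, H2bc21, H4c9 and H2ac8. None of the 11 passed an adjusted p of 0.05 (limma on log2(CPM + 1), Benjamini-Hochberg over all genes tested), where 0% of all genes tested passed. At an unadjusted p under 0.05, 0 of the 11 passed with limma and 0 with edgeR, while 213 of all genes tested (1.43%) passed with limma and 232 with edgeR. Neither edgeR nor DESeq2, run on the whole reads that the CPM values encode, called a histone gene; over all genes they called 0 and 3. In no member tested did every Naringin library lie above, or every one below, all Control libraries, a pattern seen in 3.36% and 2.29% of all genes tested. The median log2 fold change, Naringin minus Control, was -0.12 over the 5 cluster genes (2 higher, 3 lower) and -0.097 over the 6 replacement variants (2 higher, 4 lower), beside 0.025 over all genes tested. Without Control 3 these medians were 0.044, 0.0038 and 0.0016. Control 3 was the highest of the 6 libraries for 9 of the 11 genes and the lowest for 1, H2bc21.

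**Figure D2:**
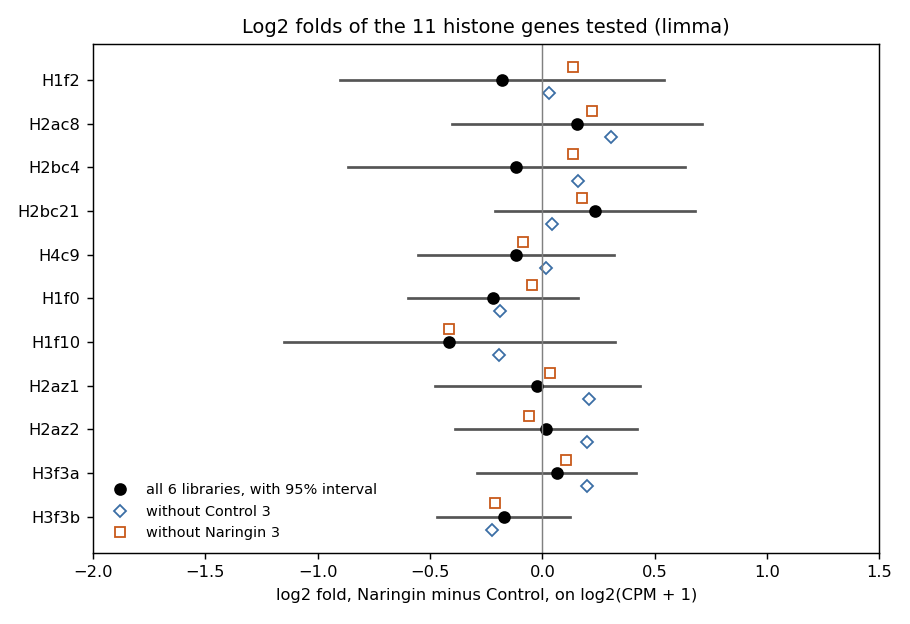
Log2 fold change of the 11 histone genes tested, Naringin minus Control on the log2(CPM + 1) scale, with 95% intervals from limma, and the values without Control 3 and without Naringin 3 as open symbols. Every interval spans 0, and the values range from -0.41 for H1f10 to 0.23 for H2bc21.

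The H3.3 genes came first in level. H3f3a had 734, 788 and 699 CPM in Naringin nodes, against 637, 652 and 854 CPM in Control nodes. All Naringin values lay above Control 1 and 2 and below Control 3, and the fold change was 0.063 ± 0.15 (log2 ± SE; 95% interval -0.29 to 0.42), or 0.20 without Control 3. H3f3b, which encodes the same protein from another chromosome, had 503, 561 and 579 CPM in Naringin nodes, against 655, 623 and 573 CPM in Control nodes. Here all 3 Naringin libraries lay below the Control mean of 617 ± 41.4 CPM (SD, n = 3), but Naringin 3 exceeded Control 3, and the fold change of -0.17 ± 0.13 (95% interval -0.47 to 0.12) did not pass the test. Without Control 3 it was -0.22. The ratio of H3f3a to H3f3b was therefore 1.46, 1.40 and 1.21 in Naringin nodes and 0.973, 1.05 and 1.49 in Control nodes. It averaged 1.36 ± 0.133 in Naringin nodes and 1.17 ± 0.281 in Control nodes (SD, n = 3 each), a log2 ratio of 0.21 that was 0.43 without Control 3. Control 3 held the highest ratio of all, so the groups overlapped only through that library. The ratio was singled out after its values had been seen and carries no test.

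The H2A.Z genes followed. H2az1, the main source of H2A.Z, had 261, 276 and 239 CPM in Naringin nodes, against 222, 224 and 361 CPM in Control nodes. As with H3f3a, all Naringin values lay between Control 1 and 2 on the one side and Control 3 on the other. Its fold change was -0.022 ± 0.20 (95% interval -0.48 to 0.44), with adjusted p = 0.9996 by limma, and was 0.21 without Control 3. H2az2, whose protein differs from that of H2az1 in a few residues, had 41.9, 45.5 and 50.9 CPM in Naringin nodes, against 40.6, 39.3 and 58.9 CPM in Control nodes. Again all Naringin values lay above Control 1 and 2 and below Control 3, with a fold change of 0.014 ± 0.18 (95% interval -0.39 to 0.42) and of 0.20 without Control 3. H2az1 exceeded H2az2 by 6.22, 6.06 and 4.70 times in Naringin nodes and by 5.45, 5.72 and 6.14 times in Control nodes, so the ratio of these genes overlapped between groups.

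Among the H1 variants, H1f0, the linker histone of cells that have left the cycle, had 65.2, 65.0 and 44.9 CPM in Naringin nodes, against 67.7, 63.9 and 70.0 CPM in Control nodes. Naringin 3 was the lowest of the 6 and the other 5 libraries lay within 63.9 to 70.0 CPM. The fold change was -0.22 ± 0.17 (95% interval -0.60 to 0.16), and the lowest and highest values on leaving out 1 library were -0.31 and -0.044. H1f10, the variant H1X, had 1.00, 1.67 and 1.33 CPM in Naringin nodes, against 2.75, 0.867 and 3.21 CPM in Control nodes. Its fold change of -0.41 ± 0.32 was the most negative of the 11, but Control 2 was the lowest library and the 95% interval ran from -1.15 to 0.32. Leaving out 1 library gave values from -0.78 to -0.19. Without Control 3 it was -0.19, and H3f3b, at -0.22, was then more negative on the log2(CPM + 1) scale. That scale understates the change of low genes, and edgeR put H1f10 at -0.79 with all libraries.

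The cluster genes tested are led by an H2B gene and an H1 gene. H2bc4 had 29.4, 19.9 and 13.9 CPM in Naringin nodes, against 22.0, 14.7 and 32.6 CPM in Control nodes. H1f2, which encodes the linker histone H1.2, had 27.2, 18.5 and 11.1 CPM in Naringin nodes, against 18.7, 16.3 and 27.5 CPM in Control nodes. Both genes put the 6 libraries in the same order, with Control 3 and Naringin 1 highest and Naringin 3 lowest. The highest library exceeded the lowest by 2.34 times for H2bc4 and by 2.47 times for H1f2, while the ratio of H2bc4 to H1f2 kept to 1.08, 1.08 and 1.25 in Naringin nodes and 1.18, 0.902 and 1.18 in Control nodes. The spread within each group was thus wider than the difference between the groups: the fold changes were -0.12 ± 0.33 for H2bc4 (95% interval -0.87 to 0.63) and -0.18 ± 0.31 for H1f2 (95% interval -0.90 to 0.54). Without Control 3 they were 0.16 for H2bc4 and 0.031 for H1f2. H1f2 rested on 406, 277 and 159 reads in Naringin nodes and 244, 225 and 412 reads in Control nodes, so counting error is small beside this spread.

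Summed markers of dividing and antibody-producing B cells shared the 2 highest libraries with these genes, but not the rest of the order. The 5 germinal centre B cell markers summed to 38.1, 34.7 and 31.9 CPM in Naringin nodes and to 30.4, 31.1 and 41.6 CPM in Control nodes. The 5 plasma cell markers summed to 345, 316 and 280 CPM in Naringin nodes and to 241, 298 and 432 CPM in Control nodes. In both marker sums Control 3 and Naringin 1 were the highest libraries, but Control 1 was the lowest, whereas Naringin 3 was the lowest for H2bc4 and H1f2. Mki67, the mRNA of the proliferation antigen Ki-67, did not share this order: it had 96.3, 85.6 and 66.3 CPM in Naringin nodes and 87.2, 86.5 and 60.3 CPM in Control nodes, with Control 3 the lowest. The 22 S phase and cell cycle genes summed to 1092, 1103 and 1025 CPM in Naringin nodes and to 1021, 995 and 1096 CPM in Control nodes. Their sum was highest in Naringin 2, Control 3 and Naringin 1. E2f1 shared the 2 highest libraries of H2bc4 and H1f2, but Pcna and Mcm4 did not. Single members of the marker lists differed as well. Of those with the smallest p, Xbp1 shared the 2 highest libraries of the germinal centre and plasma cell sums, but Prdm1, Gcsam and Rgs13 did not. Prdm1 was highest in Control 1, at 16.7 CPM, and Rgs13 was lowest in Naringin 1, at 0.670 CPM. The part of cell makeup in the levels of H2bc4 and H1f2, the lower T cell and higher B cell markers of Naringin nodes included, was not tested.

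H2bc21, an H2B gene that lies outside the main cluster, ran in another order. It had 20.2, 18.0 and 21.6 CPM in Naringin nodes, against 20.5, 18.1 and 12.6 CPM in Control nodes. Control 3, the highest library for H2bc4, was here the lowest, and Naringin 3, the lowest for H2bc4, was the highest. The fold change of 0.23 ± 0.19 (95% interval -0.21 to 0.68) was the most positive of the 11 and was 0.044 without Control 3. With a pseudocount of 0.1 it was 0.25, and H2ac8, at 0.34, was then more positive. The ratio of H2bc21 to H2bc4 ran from 0.688 to 1.55 in Naringin nodes and from 0.387 to 1.23 in Control nodes.

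**Figure D3:**
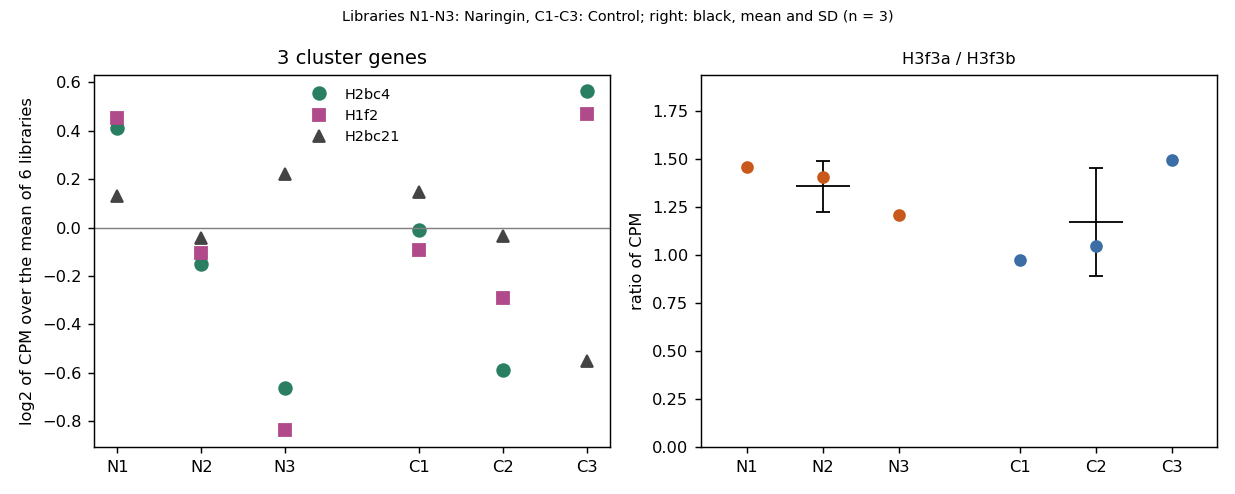
Left, log2 of the CPM of H2bc4, H1f2 and H2bc21 in each library over the gene's mean of 6 libraries; right, the ratio of H3f3a to H3f3b CPM in each library, with the mean and SD of each group in black (n = 3). H2bc4 and H1f2 lie close together in every library, with Control 3 and Naringin 1 at the top and Naringin 3 at the bottom, and H2bc21 is lowest in Control 3; the H3.3 ratio is 1.21 to 1.46 in Naringin nodes and 0.973 to 1.49 in Control nodes.

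H4c9 and H2ac8 are the remaining cluster genes tested. H4c9, an H4 gene, had 5.09, 5.48 and 4.90 CPM in Naringin nodes, against 4.97, 5.20 and 7.02 CPM in Control nodes. All 3 Naringin libraries, Control 1 and Control 2 lay within 4.90 to 5.48 CPM, and the fold change was -0.12 ± 0.19, or 0.015 without Control 3. H2ac8, an H2A gene, had 1.27, 1.27 and 0.981 CPM in Naringin nodes, against 1.15, 0.434 and 1.40 CPM in Control nodes. The groups overlapped, with a fold change of 0.16 ± 0.24 (95% interval -0.40 to 0.71), or 0.31 without Control 3.

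**Figure D4:**
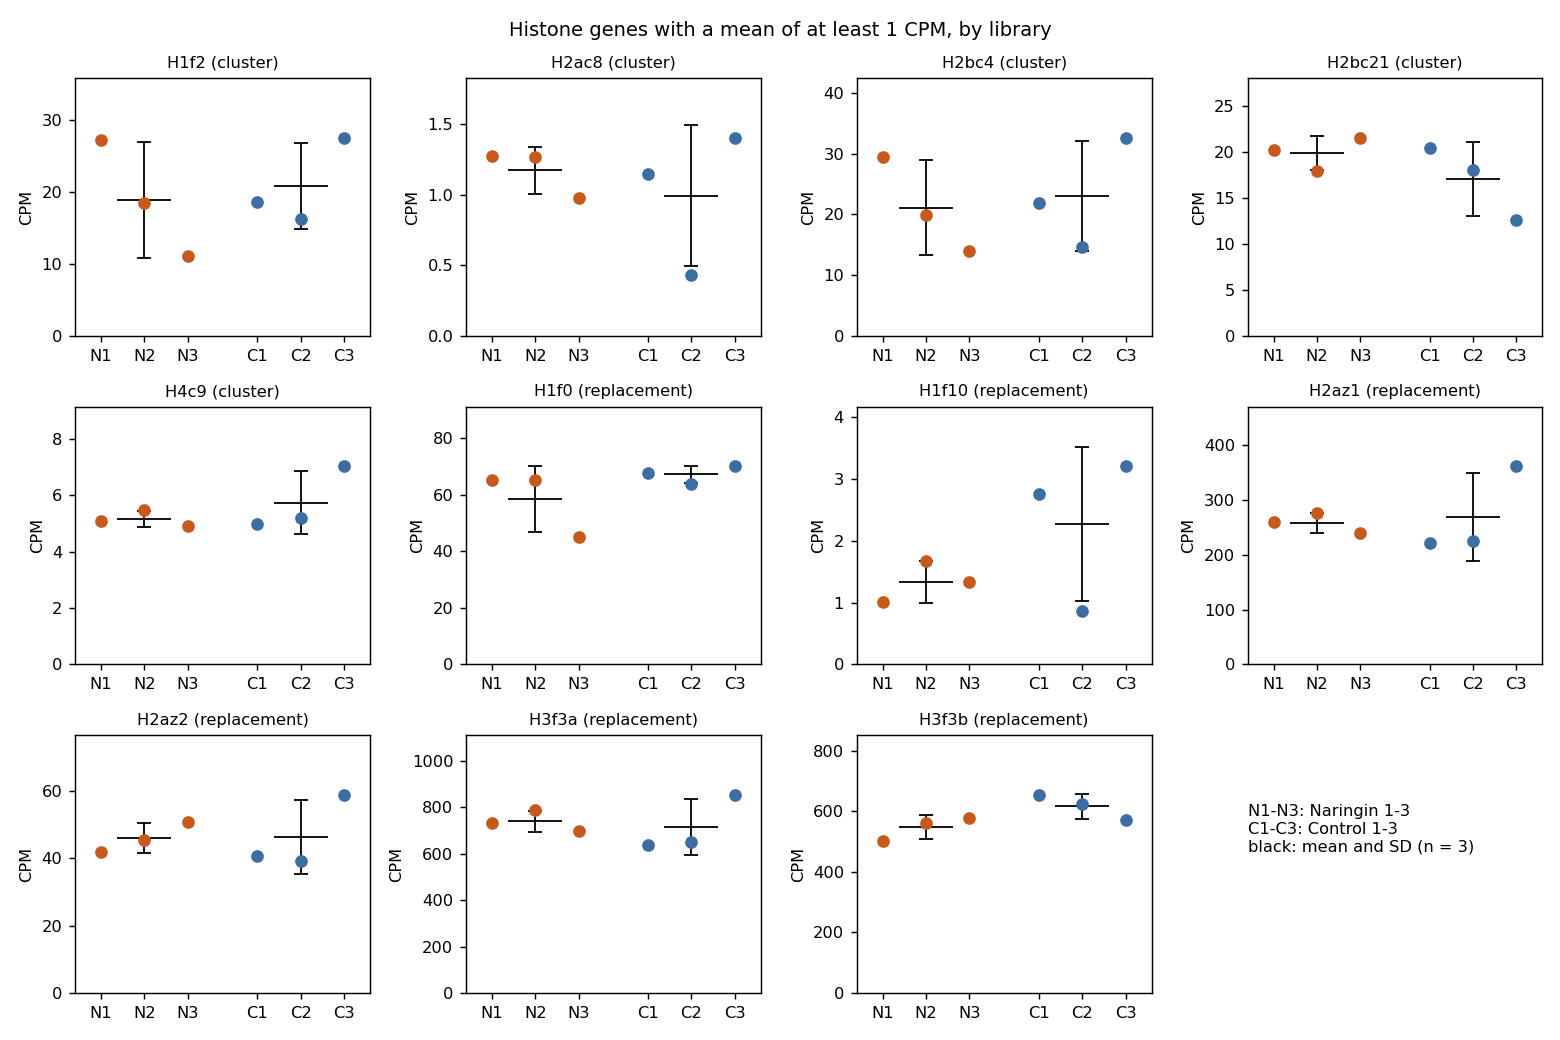
CPM of the 11 histone genes tested in each library, 1 panel a gene with its axis starting at 0; black bars are the mean and SD of each group (n = 3). H3f3a and H3f3b lie at 503 to 854 CPM, H2bc4, H1f2 and H2bc21 at 11.1 to 32.6 CPM, and the groups overlap in every gene.

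Per kilobase of exon in the GENCODE models, the level of H3f3a was 211 ± 12.9 CPM per kilobase in Naringin nodes and 204 ± 34.6 in Control nodes, and that of H3f3b was 184 ± 13.3 in Naringin nodes and 207 ± 13.9 in Control nodes (SD, n = 3 each). The order of these genes differed between the groups, and in Control nodes they lay within their spread. H2az1 followed at 145 ± 10.3 CPM per kilobase in Naringin nodes and 151 ± 44.9 in Control nodes. H1f0 and H2az2 came next and did not differ from each other beyond their spread, at 28.4 and 28.2 CPM per kilobase in Naringin nodes and 32.7 and 28.3 in Control nodes. With these model lengths the cluster genes were lower. H2bc4 had 18.2 CPM per kilobase in Naringin nodes and 20.0 in Control nodes. H1f2 had 12.1 in Naringin nodes and 13.3 in Control nodes, and the spreads of H2bc4 and H1f2 overlapped. H2bc21 had 7.60 ± 0.697 CPM per kilobase in Naringin nodes and 6.51 ± 1.54 in Control nodes. H4c9 had 7.09 ± 0.401 in Naringin nodes and 7.88 ± 1.54 in Control nodes (SD, n = 3 each), so the spreads of H2bc21 and H4c9 overlapped. H2ac8 and H1f10 closed the order, with 1.67 and 1.10 CPM per kilobase in Naringin nodes and 1.41 and 1.87 in Control nodes. The levels rest on exon lengths of GRCm38 models, which need not be those the authors counted on. The models of H1f2, H4c9 and H2ac8 run 840, 330 and 151 bases past the stem-loop. If the mRNAs of these genes end at the stem-loop, their levels per kilobase are understated. Their place in the order thus depends on the length used.

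The other 55 cluster genes stayed under a mean of 1 CPM and were not tested. They held 1 to 79 reads each over all 6 libraries, with a median of 14; 21 had under 10 reads and 23 had a read in every library. Together they had 195, 156 and 189 reads in Naringin nodes and 187, 165 and 306 reads in Control nodes, or 13.1, 10.4 and 13.2 CPM in Naringin nodes and 14.3, 11.9 and 20.4 CPM in Control nodes. Their mean sums were 12.2 ± 1.58 CPM in Naringin nodes and 15.6 ± 4.40 CPM in Control nodes (SD, n = 3 each), a log2 ratio of -0.35 that was -0.10 without Control 3. The 4 cluster genes with the most reads, H2bc4, H1f2, H2bc21 and H4c9, took between 78.4% and 85.1% of all cluster reads in every library.

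**Figure D5:**
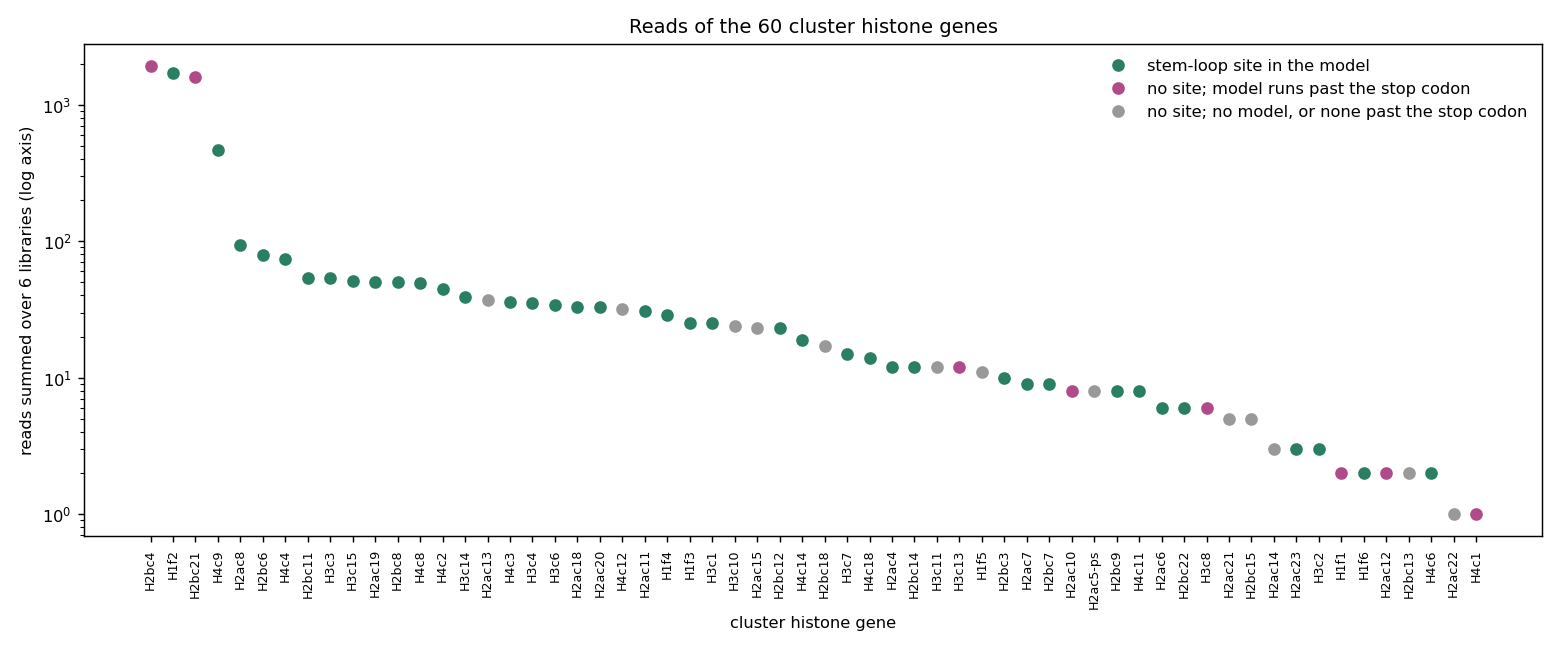
Reads of each cluster histone gene summed over the 6 libraries, ranked from most to fewest on a log axis and coloured by whether the gene model holds a stem-loop match. H2bc4, H1f2 and H2bc21 lead, H4c9 follows, and the 55 genes under 1 CPM run from 79 reads for H2bc6 to 1 read for H4c1.

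By class, the cluster H3 genes, all 12 of which lay under 1 CPM, summed to 2.95, 1.54 and 3.92 CPM in Naringin nodes and to 4.44, 2.75 and 6.08 CPM in Control nodes. Naringin 3 lay above Control 2, and the means were 2.80 ± 1.20 CPM in Naringin nodes and 4.42 ± 1.67 CPM in Control nodes (SD, n = 3 each), a log2 ratio of -0.66 that was -0.36 without Control 3. The leading H3 genes were H3c3, with 6, 1 and 14 reads in Naringin nodes and 9, 9 and 15 reads in Control nodes, and H3c15, with 8, 2 and 9 reads in Naringin nodes and 16, 6 and 10 reads in Control nodes. The cluster H4 genes summed to 6.77, 7.48 and 9.11 CPM in Naringin nodes and to 8.11, 8.96 and 11.8 CPM in Control nodes, of which H4c4 had 3, 14 and 12 reads in Naringin nodes and 7, 13 and 25 reads in Control nodes. The cluster H2A genes summed to 4.62, 4.41 and 3.22 CPM in Naringin nodes and to 4.51, 2.60 and 5.48 CPM in Control nodes. Of these, H2ac19 had 10, 11 and 3 reads in Naringin nodes and 12, 5 and 9 reads in Control nodes. Beside H1f2, the H1 gene with the most reads was H1f4, with 6, 6 and 2 reads in Naringin nodes and 5, 4 and 6 reads in Control nodes. The cluster H2B genes summed to 54.0, 40.7 and 37.8 CPM in Naringin nodes and to 45.2, 34.9 and 49.9 CPM in Control nodes. The log2 ratios were -0.14 for H1, -0.040 for H2A, 0.026 for H2B and -0.31 for H4, or 0.11, 0.20, 0.14 and -0.13 without Control 3. The sums of each class overlapped between groups, and at these depths a single gene's difference of a few reads could not be told from counting error.

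Among the 55 genes, 1 had every Naringin library above every Control library and 3 had every one below. The same patterns occurred in 2.13% and 3.2% of the 13854 genes with a read and a mean under 1 CPM. The gene above was H2ac21, with 2, 2 and 1 reads in Naringin nodes and 0 reads in each Control node. The genes below were H3c8, with 0 reads in each Naringin node and 2 reads in each Control node, H2ac6 and H2bc15. H2bc15 had 0, 1 and 0 reads in Naringin nodes and 2, 1 and 1 reads in Control nodes. H2bc15 and H2ac6 are separated in CPM only by the worth of 1 read in libraries of unlike depth, and each of the 4 genes rested on 5 or 6 reads in all.

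The genes of the clusters are near copies of each other, which limits what reads can say of a single one. Of the windows of 50 bases in the models of 53 low cluster genes, a median of 49.7% also stood in the model of another gene that the naming rule covers (range 0% to 100%). Genes outside the rule were not searched, so a share of 0% does not show that a gene's reads match nowhere else. For the 5 cluster genes tested the share was 29.3% in H2bc4, 8.54% in H1f2, 0% in H2bc21, 28.9% in H4c9 and 43.2% in H2ac8, and it was 0% in all 6 replacement variants. The handling of reads that match several genes is unknown from the labels and notes, so the values of the low cluster genes are uncertain. Cluster genes with a stem-loop match summed to 44.6, 33.9 and 27.6 CPM in Naringin nodes and to 36.2, 31.9 and 52.9 CPM in Control nodes. Those without a match or a model summed to 51.7, 39.7 and 38.2 CPM in Naringin nodes and to 45.4, 34.6 and 48.7 CPM in Control nodes. Both sums were highest in Control 3 or Naringin 1 and overlapped between groups. Where the model ran more than 100 bases past the stem-loop, as in H1f2, the median level was 0.403 CPM (19 genes), and where it ended within 100 bases, as in H3c3, it was 0.215 CPM (20 genes). These medians are not divided by model length, which was 1560 bases for H1f2 and 630 bases for H3c3. They therefore do not rank the sets by level per kilobase.

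The genes that serve histone supply were counted in 7 lists, of which 90 genes were tested. Of these, 54 were higher and 36 lower in Naringin nodes, beside 8431 higher and 6442 lower of all 14873 genes tested. None of the 90 passed the adjusted threshold, and their median log2 fold change was 0.031 beside 0.025 over all genes. Without Control 3 their median was -0.012. Of the 90, 5 had every Naringin library above and 2 every one below the Control libraries, beside 3.36% and 2.29% of all genes tested. Among 11 transcription factors of histone genes and their regulators, 8 were higher and 3 lower, with a median of 0.075 that was -0.077 without Control 3. Npat, the coactivator that brings RNA polymerase to the histone locus body, had 31.2, 28.6 and 28.4 CPM in Naringin nodes, against 29.6, 33.5 and 15.6 CPM in Control nodes. The low value was again in Control 3, and the fold change of 0.22 ± 0.26 was -0.10 without it. The genes of smallest p in this list were Ccne2, a cyclin of the entry into S phase, at 0.24 ± 0.20, and the S phase transcription factor E2f1, at 0.18 ± 0.19 and at 0.32 without Control 3, both with overlapping groups.

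Of 14 genes of 3′ end processing, 8 were higher and 6 lower, with a median of 0.0020 that was 0.049 without Control 3. Slbp, whose protein binds the stem-loops printed above, had 65.1, 69.6 and 66.6 CPM in Naringin nodes, against 55.5, 58.5 and 68.9 CPM in Control nodes. Its groups overlapped through Control 3, and the fold change was 0.14 ± 0.13, or 0.23 without Control 3. Zfp473, which ties the stem-loop complex to the U7 particle, had 2.55, 1.54 and 1.96 CPM in Naringin nodes, against 1.53, 1.23 and 1.14 CPM in Control nodes. Its fold change was 0.38 ± 0.21. The groups did not overlap, but the nearest libraries had 1.536 CPM (Naringin 2, 23 reads) and 1.530 CPM (Control 1, 20 reads). Of 9 genes of histone mRNA decay, 7 were higher and 2 lower, with a median of 0.16 that was -0.11 without Control 3. Lsm1, of the ring that binds the mRNA end during decay, had 27.0, 26.5 and 26.1 CPM in Naringin nodes, against 22.0, 22.9 and 26.0 CPM in Control nodes, with a fold change of 0.16 ± 0.13. Its groups did not overlap, but the nearest libraries had 26.13 CPM (Naringin 3) and 26.00 CPM (Control 3). Eri1, the nuclease that trims the stem-loop end, had a fold change of 0.15 ± 0.14, and of 0.036 without Control 3.

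Chaperones carry histones to DNA. Of 14 chaperones that act with replication, 8 were higher and 6 lower, with a median of 0.0075 that was 0.012 without Control 3. Hat1, which acetylates new H4, had 49.6, 51.1 and 43.4 CPM in Naringin nodes, against 42.3, 42.5 and 41.5 CPM in Control nodes. Its groups did not overlap, and its fold change of 0.18 ± 0.12 did not pass the test (adjusted p = 0.9996, limma). Nap1l1, a chaperone of H2A and H2B, had 325, 372 and 360 CPM in Naringin nodes, against 353, 323 and 311 CPM in Control nodes, with a fold change of 0.099 ± 0.12, or 0.059 without Control 3. Of 15 chaperones of variants, 7 were higher and 8 lower, with a median of -0.012 that was -0.15 without Control 3. Both routes of H3.3 were among the genes with the smallest p. Hira, which places H3.3 at active genes, had 42.7, 41.9 and 44.1 CPM in Naringin nodes, against 48.3, 51.5 and 49.0 CPM in Control nodes. Every Naringin library lay below every Control library, and the fold change was -0.20 ± 0.11, or -0.21 without Control 3. Daxx, which places H3.3 at telomeres and repeats, had 87.0, 98.6 and 89.8 CPM in Naringin nodes, against 85.7, 76.3 and 79.4 CPM in Control nodes. Every Naringin library lay above every Control library, with a fold change of 0.19 ± 0.12 and of 0.18 without Control 3. Neither gene passed the adjusted threshold, and both were chosen for their small p within the list.

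Of 22 S phase and cell cycle genes, 15 were higher and 7 lower, with a median of 0.069 that was 0.11 without Control 3. Pcna, the sliding clamp of DNA replication, had 148, 150 and 158 CPM in Naringin nodes, against 128, 144 and 135 CPM in Control nodes, with a fold change of 0.16 ± 0.12. Its groups did not overlap, whereas Mki67 had overlapping groups and a fold change of 0.087 ± 0.19 that was -0.086 without Control 3. Mcm4, of the replicative helicase, had a fold change of 0.17 ± 0.16 that was 0.0066 without Control 3. Of 5 further histone variant genes tested, 1 was higher and 4 lower, with a median of -0.056 that was -0.012 without Control 3. H2bu2, an H2B gene, had 2.95, 3.87 and 2.87 CPM in Naringin nodes, against 4.36, 5.28 and 3.68 CPM in Control nodes, with a fold change of -0.36 ± 0.20. Macroh2a2, a macroH2A gene, was the one that was higher, at 0.27 ± 0.21, and both overlapped between groups. The variants of highest level were taken up after their values had been seen. Macroh2a1, whose protein joins H2A to a large macro domain, had 318, 313 and 335 CPM in Naringin nodes, against 378, 351 and 290 CPM in Control nodes. H2aj, an H2A gene with a polyadenylated mRNA, had 125, 132 and 148 CPM in Naringin nodes, against 122, 127 and 178 CPM in Control nodes. Their fold changes were -0.068 ± 0.14 for Macroh2a1 and -0.056 ± 0.17 for H2aj, or -0.18 and 0.12 without Control 3.

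RNAs that carry no poly(A) tail, such as the 7SK RNA Rn7sk, were set beside the stem-loop mRNAs as a guide to library type. The 17 such RNAs in the table, 3 of them listed at 0, summed to 5.76, 4.67 and 15.9 CPM in Naringin nodes and to 25.5, 6.51 and 5.81 CPM in Control nodes. They were highest in Control 1 and Naringin 3, whereas the cluster histone genes were highest in Control 3 and Naringin 1. Rn7sk itself had 2.01, 1.94 and 6.09 CPM in Naringin nodes, against 11.01, 2.31 and 2.14 CPM in Control nodes. Rpph1, the RNA of ribonuclease P, had 1.41, 0.267 and 3.43 CPM in Naringin nodes, against 6.195, 0.795 and 1.40 CPM in Control nodes, and its highest libraries were the same.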

How the data were processed

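RNA sequencing of 6 mouse inguinal lymph node samples, 3 Naringin and 3 Control, was analysed from the authors' deposited table. Per the labels' protocols, RNA was purified on RNeasy columns and libraries were made with a NEBNext Ultra kit. Reads were handled with Trimmomatic 0.39, STAR 2.7.9a, featureCounts (Subread 1.6.0) and edgeR 3.40.0 on mm39, per the submitters' processing notes; their annotation, strand setting and treatment of shared reads were not given in the sources used. The deposited values are CPM, reads divided by the library total, and each column summed to 1000000. All 6 columns carry a number that matches a sample title. Whole read counts were recovered from the deposited CPM steps: 100% of values above 0 were whole within 0.01 read.

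Genes whose mean over the 6 libraries reached 1 CPM were tested on log2(CPM + 1) with limma 3.58.1 in R 4.3.3 (trend, robust, 2-sided), with Benjamini-Hochberg adjustment over 14873 genes and a threshold of 0.05. Fold changes on this scale understate the change of low genes. SE and 95% intervals are limma's. Alternatives were pseudocounts of 0.1 and 5, no filter, a filter of 5 CPM, TMM and median-of-ratios scaling, a replicate block, each library left out, edgeR 4.0.16 and DESeq2 1.42.0 on the recovered reads, and a length correction. The test was checked on simulated data. The members and gene lists were chosen with earlier results of these data known. Named genes were the 2 members of highest mean CPM in each class, the 5 tested members of smallest p in each direction, the 2 genes of smallest p in each partner list, Mki67, Slbp and Npat, and Cd3e, Ms4a1, Adipoq, Krt14 and Acta1 as a check of the tissue. Motifs were matched to GENCODE M21 models and RefSeq promoters of GRCm38, a build other than that of the values.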

Additional observations from a re-analysis of the deposited data

How the results depend on the processing

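Over all genes, the count past the adjusted threshold was 0 and ranged from 0 to 1 on leaving out 1 library, with 1 without Control 3; DESeq2 called 3. No histone gene was called under any alternative run. The median log2 fold change of the 5 cluster genes ranged from -0.17 to 0.14 on leaving out 1 library, the highest without Naringin 3, and that of the replacement variants from -0.15 to 0.0038. The cluster median was -0.041 under a length correction chosen after seeing the data and -0.037 with no filter, which adds the low cluster genes, and the replacement median was -0.022 with the filter of 5 CPM, which drops H1f10. The log2 ratio of summed replacement CPM was -0.14 without its most abundant member, H3f3a. On leaving out 1 library the log2 ratio of summed CPM ranged from -0.26 to 0.085 for cluster genes, from -0.10 to 0.034 for replacement variants and from -0.22 to 0.085 for the ratio of cluster to replacement CPM. Of 174 single-gene alternatives, 158 kept the direction and 16 reversed it. H2az1 was 0.016 under the length correction. H2az2 was -0.0055 with median-of-ratios scaling, -0.022 with edgeR and -0.033 with DESeq2. The remaining reversals came from leaving out 1 library, with ranges of -0.013 to 0.20 for H3f3a, -0.14 to 0.21 for H2az1, -0.089 to 0.20 for H2az2, -0.39 to 0.16 for H2bc4, -0.47 to 0.14 for H1f2, -0.20 to 0.015 for H4c9 and -0.066 to 0.31 for H2ac8. The cause was not tested. Same-numbered samples did not deviate together (r = -0.26, -0.019 and -0.27), and the highest value between the groups was r = 0.31, for Naringin 3 and Control 1. With 3 libraries a group, these values cannot settle whether the numbers pair the samples. With the replicate block 0 genes were called and the cluster median was -0.12. Depth limits the 55 low cluster genes, with a median of 14 reads over 6 libraries; with 3 libraries a group, small differences cannot be told from the spread.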

Other observations

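H2ax, whose product is phosphorylated at DNA breaks and which the naming rule covers, was listed at 0 in all 6 libraries. Dpagt1, which lies beside it on the chromosome, had 29.8, 29.2 and 26.1 CPM in Naringin nodes and 25.0, 22.3 and 35.6 CPM in Control nodes. H2ax is transcribed in most dividing cells, and Mki67 and Pcna were present in every library. The H2ax model held a match to the stem-loop pattern. Why H2ax was listed at 0 was not tested. The other 10 symbols at 0 include the germ cell linker histones H1f7, H1f8 and H1f9 and the testis genes H2ac1 and H2bc1.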
